A study of Mus musculus with 2 samples.

Results

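The 36 genes described here supply cells with amino acids or report a shortage of them. They were chosen by symbol from the 19059 genes of the deposited matrix, and all 36 were found there. They fall into 6 roles: ATF4 and its partner factors (Atf4, Atf5, Ddit3, Trib3, Nupr1), stress effectors under ATF4 (Chac1, Sesn2, Ddit4, Stc2, Vldlr), enzymes of serine, glycine and one-carbon metabolism (Phgdh, Psat1, Psph, Shmt1, Shmt2, Mthfd2, Aldh1l2), proline synthesis with Pck2 (Aldh18a1, Pycr1, Pck2), enzymes of asparagine, glutamine and transamination (Asns, Glul, Glud1, Got1, Got2, Gpt2), and amino acid carriers (Slc7a11, Slc7a5, Slc3a2, Slc7a1, Slc1a5, Slc1a4, Slc38a1, Slc38a2, Slc6a9, Slc6a14).

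When uncharged transfer RNA accumulates, the kinase GCN2 phosphorylates the initiation factor eIF2, general translation slows, and the messenger RNA of the transcription factor ATF4 is translated more. ATF4 pairs with C/EBP family proteins, CHOP (Ddit3) among them, and raises the transcription of amino acid carriers, of biosynthetic enzymes and of feedback inhibitors such as Trib3. Pancreatic cancers are known for scavenging extracellular protein by macropinocytosis, a bulk engulfment of fluid that yields amino acids in the lysosome, and for using glutamine.

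The data came from orthotopic KPC tumors, which are grown in the mouse pancreas from pancreatic cancer cells, of animals given DMSO, the vehicle, or EIPA at 10 mg/kg, a sodium/proton exchange inhibitor used to block macropinocytosis. Each of the 2 samples was a pool of 4 flash-frozen tumors, so the spread between animals cannot be seen. Fixed cells were profiled with a probe-based assay that counts ligated probe pairs by unique molecular identifier (UMI). Both samples share 1 matrix of 24282 cells, and the number that ends each cell barcode separates 2 libraries that no label ties to a treatment, so they are called library 1 and library 2 and no difference is read as an effect of EIPA.

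Library 1 held 12337 cells and 203459556 UMIs, and library 2 held 11945 cells and 185474400 UMIs. After filtering, 11115 and 10785 cells remained, with medians of 11695 and 10756 UMIs over all cells of the matrix. Clusters were named from markers: tumor-like cells (8980 in library 1 and 8198 in library 2, 17 clusters), fibroblast-like cells (374 and 460) and leukocyte-like cells (768 and 1250, of which 423 and 510 were macrophage- or monocyte-like), called tumor cells, fibroblasts and leukocytes from here on. Col1a1 stood at 35730 and 37598 UMIs per 1000000 UMIs of the class (CPM) in fibroblasts and 79.6 and 96.1 in tumor cells. Krt8 stood at 1910 and 2363 CPM in tumor cells, 486 and 844 in fibroblasts, and 715 and 817 in leukocytes. Both genes were among the naming markers, so their levels do not check the names. Ptprc, which was not a naming marker, stood at 352 and 329 CPM in leukocytes and 5.48 and 5.86 in tumor cells. Another 5 clusters (482 and 570 cells) stayed unnamed, and a macrophage-like cluster of high UMI count (256 and 99 cells) was kept out of the leukocytes. The libraries shared 225 barcodes, and without them the counts of members that differed between libraries in these 3 classes, or between tumor cells and the other 2, were the same.

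A level in CPM is taken from UMIs summed over the cells of a class. Values are given for library 1 and then library 2. Levels are compared within a gene only, since genes carry different probes. Intervals are exact 95% Poisson intervals and, like the limits given for counts of 0, cover counting error only. There is 1 library on each side, so no test between libraries was possible and no p-value is given. A member was counted as higher or lower in library 2 when it reached 20 CPM in at least 1 library, the ratio of CPM plus 1 passed 1.5-fold, and the intervals did not overlap.

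Epithelial RNA was found in every class. The median of 20 epithelial markers stood at 26.0% and 27.7% of its tumor-cell level in fibroblasts, at 39.5% and 39.0% in leukocytes, and at 27.7% and 22.3% in macrophages. A member whose level in another class is near that share of its tumor level is read as background. In fibroblasts this held for Chac1, Slc7a11 and Trib3 in library 1 (27.8%, 28.5% and 32.4% of the tumor level) and for Phgdh in library 2 (30.2%). In leukocytes it held for Slc1a4 (42.8% and 43.9%), for Stc2 in library 1 (40.2%) and for Phgdh in library 2 (38.3%). With this RNA subtracted, 10 members were higher and 5 lower in tumor cells than in fibroblasts, in place of the 6 and 5 given further on, and 10 were higher and 3 lower than in leukocytes, in place of 1 and 3.

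In the pooled sums, most members stood close together between the libraries in all 3 classes. In tumor cells 0 of 32 members tested were higher in library 2 and 1 was lower, against 1.97% and 0.833% of the 8522 genes tested. In fibroblasts 1 of 29 was higher and 0 were lower, against 3.09% and 3.57% of all genes. In leukocytes 0 of 33 were higher and 0 lower, against 3.48% and 1.79%. Leukocyte types were present in different shares: macrophage- or monocyte-like cells were 423 of 768 and 510 of 1250, and T- or NK-like cells 119 and 330. Ratios of the pooled leukocytes therefore mix levels with shares. Ratios of the pooled tumor cells do too: cluster 6, for example, was 1.53% and 11.9% of tumor cells. With library 2 set to the cluster shares of library 1, 29 tumor-cell ratios left their counting intervals and 3 did not. Chac1 went from -0.21 to 0.40, Trib3 from -0.27 to 0.19 and Phgdh from 0.20 to -0.02. By that calculation 1 member, Slc1a5, passed the threshold. Over the members tested, the median log2 ratio was 0.00 in tumor cells, as it was over all genes tested, and 0.13 in fibroblasts against 0.03. The 2 members past the threshold in the pooled sums were both carriers, Slc7a11 in tumor cells and Slc38a1 in fibroblasts.

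**Figure D1:**
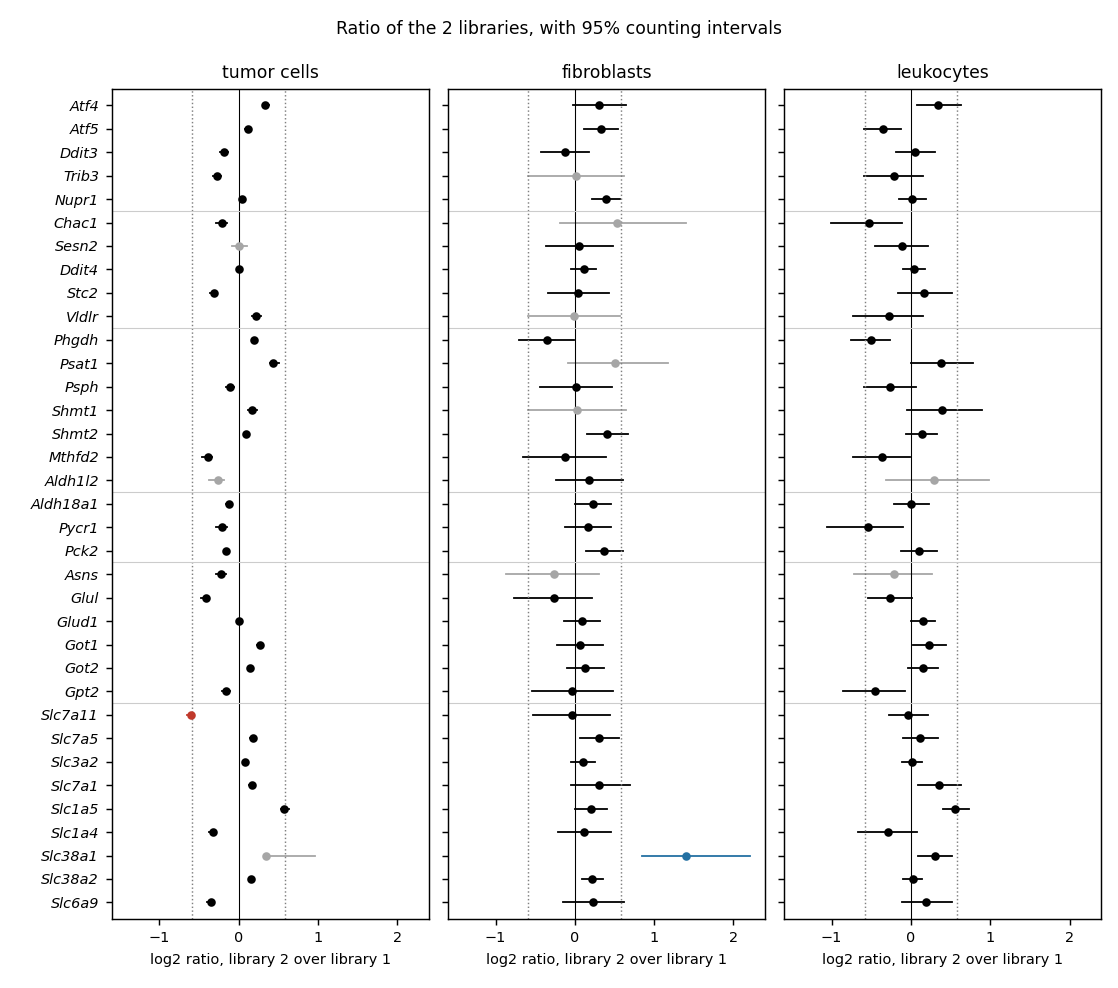
Each panel shows 1 class, and each point is the log2 ratio of library 2 over library 1 of a member's CPM plus 1. Bars are exact 95% intervals of the UMI ratio, dotted lines mark 1.5-fold, grey points lie under 20 CPM, and the coloured points (Slc7a11 in tumor cells at -0.60, Slc38a1 in fibroblasts at 1.41) passed the threshold.

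Among ATF4 and its partner factors, 0 of 5 tested in tumor cells, 0 of 4 in fibroblasts and 0 of 5 in leukocytes differed between libraries. Atf4 itself stood at 62.3 and 78.9 CPM in tumor cells, 44.8 and 55.4 in fibroblasts, and 45.0 and 57.5 in leukocytes. The log2 ratio was 0.34 in tumor cells, 0.30 in fibroblasts and 0.35 in leukocytes, below the threshold each time. In the tumor cells Atf4 was above library 1 in 16 of the 17 clusters, and past the threshold in 3. Clusters of a library share its pool of tumors and are not replicates, here and in the cluster counts below. ATF4 is controlled largely at translation, so this messenger level does not measure the protein. Atf5, a related factor, stood at 94.2 and 102 CPM in tumor cells, 105 and 132 in fibroblasts, and 79.7 and 62.3 in leukocytes. Ddit3 ranged from 46.9 to 64.3 CPM over all 6 combinations of class and library. Nupr1, a small stress-induced chromatin protein, stood at 146 and 150 CPM in tumor cells and 154 and 202 in fibroblasts.

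Trib3, a pseudokinase that ATF4 induces and that restrains it, differed by class. It stood at 48.3 and 39.9 CPM in tumor cells, 15.7 and 15.8 in fibroblasts, and 29.4 and 25.2 in leukocytes. Tumor cells were 2.96- and 2.44-fold above fibroblasts. The fibroblast level was 32.4% of the tumor level in library 1, near the share of the epithelial markers.

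**Figure D2:**
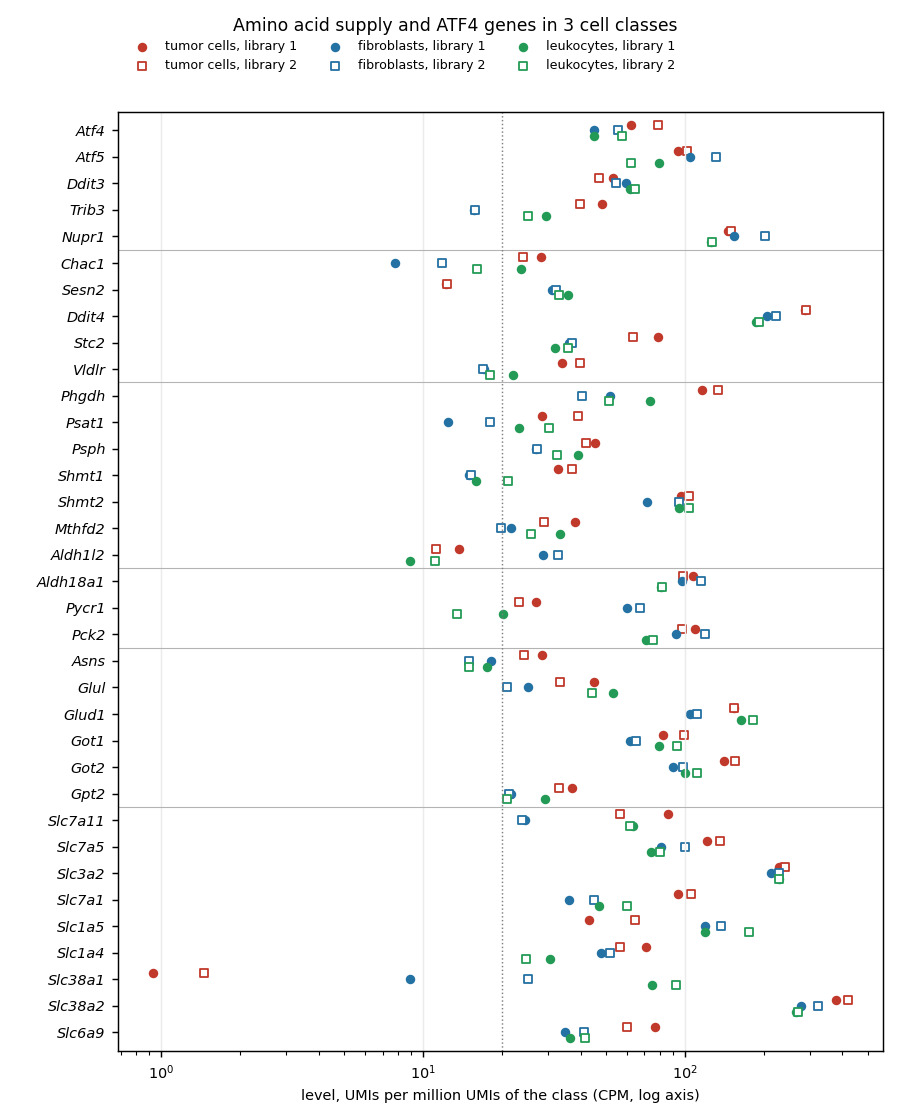
Levels of 35 members (Slc6a14 is not drawn) in CPM on a log axis, with red for tumor cells, blue for fibroblasts and green for leukocytes, filled circles for library 1 and open squares for library 2. The dotted line marks 20 CPM and grey lines separate the roles; the circle and the square of a class mostly lie close together, and Slc38a1 has the widest distance between classes, from 0.930 CPM in tumor cells to 92.4 in leukocytes.

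Of the stress effectors, 0 of 4 tested in tumor cells, 0 of 3 in fibroblasts and 0 of 5 in leukocytes differed between libraries. Chac1, which cleaves glutathione, stood at 28.1 and 24.2 CPM in tumor cells and 23.7 and 16.1 in leukocytes, and in fibroblasts at 7.83 and 11.8 CPM. Sesn2, a leucine sensor that inhibits mTORC1, ran the other way: it stood at 12.2 and 12.3 CPM in tumor cells, 31.0 and 32.2 in fibroblasts, and 35.8 and 33.0 in leukocytes. Tumor cells thus lay 2.41- and 2.49-fold below fibroblasts and 2.78- and 2.55-fold below leukocytes. Ddit4, another mTORC1 inhibitor, stood at 288 and 290 CPM in tumor cells, 206 and 223 in fibroblasts, and 187 and 192 in leukocytes. The secreted glycoprotein Stc2 had 79.1 and 63.4 CPM in tumor cells and 35.9 and 37.0 in fibroblasts. The lipoprotein receptor Vldlr had 33.9 and 39.7 CPM in tumor cells and 17.1 and 16.9 in fibroblasts. Neither passed the class threshold of 2-fold in both libraries with intervals apart.

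The serine pathway was higher in tumor cells than in fibroblasts at its entry. Phgdh, which takes 3-phosphoglycerate into serine synthesis, stood at 117 and 134 CPM in tumor cells, 51.9 and 40.5 in fibroblasts, and 73.3 and 51.3 in leukocytes. Tumor cells were 2.22- and 3.25-fold above fibroblasts for Phgdh. Psat1, the next enzyme, stood at 28.5 and 38.9 CPM in tumor cells and 12.5 and 18.1 in fibroblasts, 2.19- and 2.09-fold apart. Psph, the last step to serine, had 45.2 and 41.9 CPM in tumor cells and 27.0 and 27.3 in fibroblasts, and did not pass the threshold.

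The one-carbon enzymes divided. Cytosolic Shmt1 stood at 32.8 and 37.1 CPM in tumor cells and 14.9 and 15.2 in fibroblasts, 2.12- and 2.35-fold apart. Mitochondrial Shmt2, which turns serine into glycine and a one-carbon unit, had 96.8 and 104 CPM in tumor cells, 71.5 and 95.3 in fibroblasts, and 94.6 and 104 in leukocytes. Mthfd2, the mitochondrial folate enzyme after it, had 38.1 and 28.9 CPM in tumor cells and 21.7 and 19.8 in fibroblasts. Mitochondrial Aldh1l2, which oxidizes formyl-tetrahydrofolate, had the opposite order: 13.7 and 11.2 CPM in tumor cells, 28.8 and 32.7 in fibroblasts, and 8.89 and 11.1 in leukocytes. Fibroblasts were 2.03- and 2.76-fold above tumor cells and 3.02- and 2.78-fold above leukocytes for Aldh1l2. Of the 7 genes of this role, 3 were higher in tumor cells than in fibroblasts and 1 was lower.

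Proline synthesis showed the same order at its last step. Pycr1, which makes proline in mitochondria, stood at 27.1 and 23.2 CPM in tumor cells, 60.1 and 67.5 in fibroblasts, and 20.2 and 13.5 in leukocytes. Fibroblasts were 2.18- and 2.82-fold above tumor cells and 2.88- and 4.72-fold above leukocytes. Aldh18a1, the first step from glutamate, stood at 107 and 98.5 CPM in tumor cells and 97.8 and 115 in fibroblasts, with no difference past the threshold. Pck2, the mitochondrial enzyme that makes phosphoenolpyruvate, had 109 and 97.8 CPM in tumor cells, 92.2 and 119 in fibroblasts, and 70.8 and 75.8 in leukocytes.

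None of the 6 asparagine, glutamine and transaminase enzymes differed between tumor cells and fibroblasts by the 2-fold rule. Asns, which makes asparagine from aspartate and glutamine, stood at 28.3 and 24.2 CPM in tumor cells, 18.1 and 14.9 in fibroblasts, and 17.5 and 15 in leukocytes. Glul, the glutamine synthetase, stood at 45.0 and 33.4 CPM in tumor cells, 25.3 and 21.0 in fibroblasts, and 53.1 and 44.2 in leukocytes. Fibroblasts were 2.06-fold below leukocytes for Glul in both libraries, and macrophages held 72.3 and 65.6 CPM. The level in fibroblasts was thus the lowest of the 3 classes for the enzyme that makes glutamine. Glud1, which releases ammonia from glutamate, ranged from 104 to 182 CPM. The transaminases Got1, Got2 and Gpt2 had log2 ratios between libraries of 0.26, 0.14 and -0.15 in tumor cells.

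The carriers held the widest differences. Slc7a11, the cystine/glutamate exchanger, stood at 86.1 and 56.4 CPM in tumor cells, 24.6 and 23.8 in fibroblasts, and 63.3 and 61.7 in leukocytes. The tumor-cell level was lower in library 2 by a log2 ratio of -0.60 (interval -0.65 to -0.57), while in fibroblasts and leukocytes the ratio was -0.04. By cluster it was below library 1 in 14 of the 17 tumor clusters, and past the threshold in 5. The tumor clusters were present in different shares, and with library 2 set to the cluster shares of library 1 the log2 ratio was -0.46, no longer past 1.5-fold. Tumor cells stood 3.41- and 2.31-fold above fibroblasts.

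Slc1a5, a neutral amino acid carrier that takes up glutamine, had the opposite direction without passing the threshold in the pooled tumor cells. It stood at 42.9 and 64.4 CPM in tumor cells, 119 and 137 in fibroblasts, and 119 and 176 in leukocytes. The log2 ratio was 0.57 in tumor cells, 0.20 in fibroblasts and 0.56 in leukocytes, against a threshold of 0.58. The leukocyte ratio was not set to equal shares of the leukocyte types. Within tumor clusters Slc1a5 was above library 1 in 15 of 17, and past the threshold in 9. At equal cluster shares the tumor-cell ratio was 0.64, which passes. Tumor cells lay 2.74- and 2.11-fold below fibroblasts and 2.74- and 2.71-fold below leukocytes for Slc1a5.

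Slc38a1, another glutamine carrier, was far lower in tumor cells than in fibroblasts and leukocytes. It stood at 0.930 and 1.46 CPM in tumor cells, 8.89 and 25.3 in fibroblasts, and 74.9 and 92.4 in leukocytes, so that tumor cells were 39.3- and 38.0-fold below leukocytes on the CPM-plus-1 scale. A UMI was found in 1.47% and 2.45% of tumor cells, the background share here, and in 24.1% and 28.2% of leukocytes, although tumor cells were deeper (medians of 12916 and 13393 UMIs against 2635 and 2666). With every cell thinned to 1000 UMIs the shares were 0.0783% and 0.184% of tumor cells and 9.12% and 10.1% of leukocytes; cells with fewer UMIs, 110 and 196 of them in leukocytes and 45 and 35 in tumor cells, were left out. In fibroblasts the log2 ratio between libraries was 1.41 (interval 0.85 to 2.21), from 25 and 88 UMIs, of which 28.0% and 12.5% lay in 3 cells. After thinning to 1000 UMIs that ratio was 0.67 with overlapping intervals.

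The other carriers differed less. Slc7a5 and its heavy chain Slc3a2, which together exchange glutamine for leucine, stood at 121 and 137 CPM and at 229 and 241 CPM in tumor cells, with log2 ratios between libraries of 0.18 and 0.08. Slc7a1, which takes up arginine, stood at 94.1 and 106 CPM in tumor cells and 35.9 and 44.8 in fibroblasts, 2.58- and 2.33-fold apart. Slc1a4, a carrier of alanine and serine, had 71.1 and 56.5 CPM in tumor cells and 30.4 and 24.8 in leukocytes, 2.29- and 2.23-fold apart. The leukocyte levels of Slc1a4 were near the share of the epithelial markers, and 3.97 and 4.58 CPM remained with that RNA subtracted. Slc38a2, an amino acid carrier that rises on starvation in many cells, stood at 378 and 420 CPM in tumor cells, 277 and 323 in fibroblasts, and 266 and 269 in leukocytes. The glycine carrier Slc6a9 had 76.8 and 59.97 CPM in tumor cells. For Slc6a14 there were 0 UMIs of 153803687 and 1 of 144017996 in tumor cells, 0 in fibroblasts and 0 and 1 in leukocytes. The count of 0 in library 1 allows a tumor-cell level of up to 0.0195 CPM (3 counts), and a fibroblast level of up to 1.07 CPM.

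Between classes a member was tested when it reached 20 CPM in either class in at least 1 library. Counted so, 6 of 35 members tested were higher in tumor cells than in fibroblasts (Trib3, Phgdh, Psat1, Shmt1, Slc7a11, Slc7a1) and 5 were lower (Sesn2, Aldh1l2, Pycr1, Slc1a5, Slc38a1), against 9.02% and 10.1% of 9491 genes. Trib3, Psat1 and Shmt1 reached 20 CPM only in tumor cells and Sesn2, Aldh1l2 and Slc38a1 only in fibroblasts, so these counts describe the members and support nothing further. With 50 CPM required, 3 were higher (Phgdh, Slc7a11, Slc7a1) and 2 lower (Pycr1, Slc1a5), of 22 tested. The median log2 ratio was 0.57 and 0.50 over the members tested and 0.38 and 0.36 over all genes tested, so the CPM scale places most genes somewhat above in tumor cells. With TMM factors, 3 were higher (Trib3, Slc7a11, Slc7a1) and 5 lower, and with median-of-ratios factors 1 was higher (Trib3) and 5 lower. Without doublet removal only Slc38a1 remained past the threshold. Against leukocytes, a comparison that shares the tumor cells, 1 of 34 members was higher in tumor cells (Slc1a4) and 3 were lower (Sesn2, Slc1a5, Slc38a1), against 2.79% and 11.2% of all genes. Fibroblasts were higher than leukocytes for 2 members (Aldh1l2, Pycr1) and lower for 3 (Glul, Slc7a11, Slc38a1), against 8.38% and 10.8%. Sesn2 and Slc38a1 reached 20 CPM in leukocytes but not in tumor cells, and Aldh1l2 in fibroblasts but not in leukocytes. The counts against leukocytes thus also describe the members and support nothing further.

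Of the leukocyte types, only macrophages were compared with tumor cells on their own. Tumor cells were higher for 11 of 34 members tested, namely Trib3, Ddit4, Stc2, Vldlr, Phgdh, Shmt1, Asns, Slc7a5, Slc7a1, Slc1a4 and Slc6a9, and lower for Sesn2 and Slc38a1, against 14.2% and 12.1% of 9495 genes. Members under 20 CPM in 1 class, Sesn2 and Slc38a1 in tumor cells among them, were tested only through the other class. These counts too describe the members and support nothing further. The macrophage levels of Stc2 (27.2% and 26.8% of the tumor level) and Slc1a4 (28.7% and 23.5%) were near the share of the epithelial markers. Between libraries, 3 of 28 members were lower in library 2 in macrophages, against 3.49% of genes, and 0 were higher, against 1.85%. These were Phgdh (52.5 and 29.4 CPM), Psph (29.3 and 15.6) and Slc6a9 (29.3 and 15.1). In library 2 Phgdh stood at 21.9% and Slc6a9 at 25.3% of the tumor level, near the epithelial share of 22.3%, which is background by the rule above, and that share was 27.7% in library 1. In dendritic-like cells (82 and 244) Atf4 (26.3 and 59.8 CPM), Ddit4 (146 and 224) and Slc7a1 (35.8 and 80.4) were higher and Slc38a1 (150 and 91.5) lower, of 32 tested, against 1.93% and 2.38%. This class pools 3 clusters in unequal shares: the one led by Clec9a held 27 of the 82 cells and 148 of the 244. The class gave only 418852 UMIs in library 1. Whether the ratios follow from the shares was not tested. In T- or NK-like cells (119 and 330) Slc1a5 (142 and 250 CPM) and Slc38a1 (47.8 and 89.0) were higher of 34 tested and 0 were lower, against 4.13% and 2.34%. None of the 35 members tested in neutrophil-like cells (144 and 166) differed, against 2.74% and 2.06%. Nor did any of 29 in pericyte-like cells (62 and 55), against 1.43% and 1.17%. The epithelial share was 56.1% and 60.9% in neutrophil-like cells, 51.6% and 50.2% in T- or NK-like cells and 41.9% and 43.1% in dendritic-like cells. In pericyte-like cells it was 33.2% and 32.3%. With few cells and much epithelial RNA, a count of 0 here does not show that levels were equal. In the macrophage-like cluster of high UMI count, Psat1 (23.9 and 50.2 CPM) and Slc1a5 (52.8 and 96.1) were higher and Gpt2 (46.8 and 29.4) lower, of 35 tested, against 2.05% and 1.39%. In blood-endothelial-like cells Slc1a5 was higher (158 and 243 CPM) and Slc1a4 lower (49.7 and 25.1), of 32 tested, against 3.91% and 3.34%.

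The tumor cells were not uniform. Their 17 clusters were drawn without the members and without the wider lists of related genes, although genes that vary with the members still entered. Chac1 differed 16.5- and 7.52-fold between its highest and lowest cluster on the CPM-plus-1 scale, Trib3 12.6- and 8.33-fold, Aldh1l2 12.7- and 11.3-fold, and Asns 7.26- and 5.55-fold. Atf4 differed by only 1.79- and 1.83-fold. The order of clusters was much the same in both libraries: the median Spearman rho over the members was 0.79, and 15 members were over 0.8. This rho is over 17 clusters, which share a library and differ in depth, and is a description.

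Clusters 5 and 1 led most of the ATF4 genes. In library 1, cluster 5 was the highest for Atf5 (179 CPM), Trib3 (143), Chac1 (94.3), Shmt2 (229), Mthfd2 (103), Aldh1l2 (59.9), Pycr1 (61.9), Pck2 (210) and Asns (75.7). In library 2, cluster 1 was the highest for Atf4 (102 CPM), Atf5 (187), Trib3 (95.9), Chac1 (73.4), Mthfd2 (62.1) and Asns (42.9). Many of the lowest levels lay in clusters 6 and 14, for example Chac1 at 4.78 and 8.89 CPM in cluster 6. Cluster 5 was shallow, with medians of 5691 and 5271 UMIs, and cluster 1 was not, with 14645 and 14501. The tumor name of cluster 5 rests on few markers. It passed 3 of 22, the fewest allowed, against summed fibroblasts, pericytes and blood endothelial cells, with a mean log2 ratio of -0.05. Cluster 1 passed 6 of 22. Over both libraries cluster 5 had Epcam at 23.6 CPM and Krt8 at 709, and cluster 1 had 28.1 and 1243. Epcam does not set cluster 5 apart, since it stood at 20.0 to 25.4 CPM in clusters 2, 6, 13, 14 and 15. Krt8 was lower in cluster 5 than in any other tumor cluster, the next being cluster 3 at 976. Fibroblasts had 73.7 and 32.4 CPM of Epcam and 486 and 844 of Krt8.

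**Figure D3:**
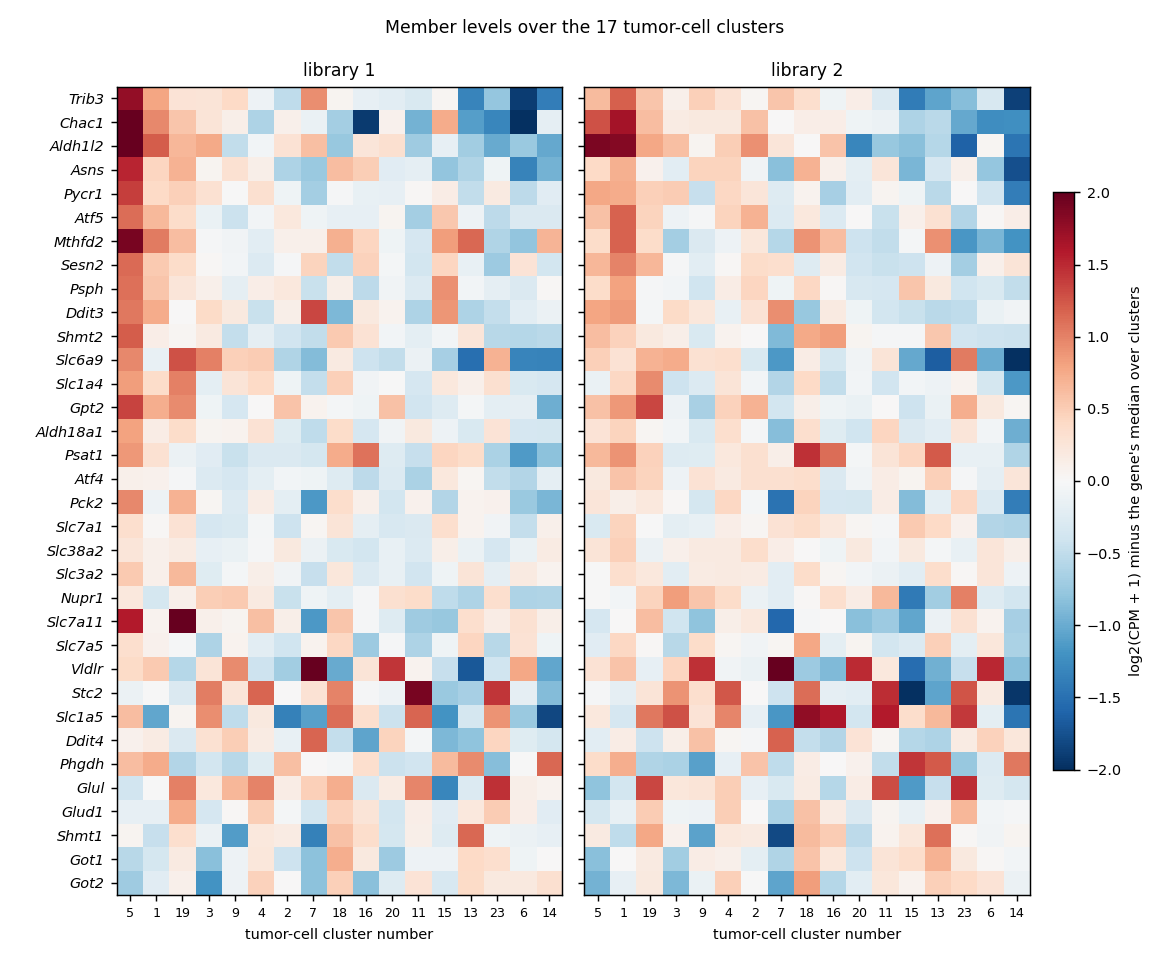
Levels of 34 members (without Slc6a14 and Slc38a1) in the 17 tumor clusters of both libraries, as log2 of CPM plus 1 minus the gene's median over clusters. Rows are ordered by likeness to 8 ATF4 core genes and columns by the mean of Trib3, Chac1, Aldh1l2 and Asns; clusters 5 and 1 stand at one end and clusters 6 and 14 at the other, with Got1 and Got2 at the foot of the order.

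Other clusters led other members. Cluster 7, with the hypoxia-responsive Adm among its leading genes, had the highest Ddit4 (612 and 617 CPM), Vldlr (150 and 138) and Ddit3 (117 and 87.1), but Slc7a11 was lowest there (28.1 and 20.8) and Asns stood at 15.1 and 14.1. Cluster 19, led by the mucins Muc5b and Muc5ac, had the highest Slc7a11 (315 and 99.0) and Slc1a4 (123 and 117). Cluster 11, led by Pigr and Reg3b, had the highest Stc2 (202 and 150). Cluster 23, led by Clca1 and Gkn2, had the highest Glul (90.8 and 92.1). Cluster 13, led by cell-cycle genes, had the highest Shmt1 (73.0 and 70.7), and Phgdh was highest in cluster 14 in library 1 (213 CPM) and in cluster 15 in library 2 (258 CPM).

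Likeness to the ATF4 core was measured as Pearson's r with the mean of 8 genes (Atf4, Atf5, Ddit3, Trib3, Nupr1, Asns, Chac1, Psat1) over the 17 clusters of each library. Points share a library, and genes share depth. Outside the core, Aldh1l2 (0.87 and 0.83), Pycr1 (0.75 and 0.73) and Mthfd2 (0.67 and 0.67) were among those most like it, with Gpt2 (0.71 and 0.44) and Psph (0.69 and 0.53), and Got2 (-0.55 and -0.19) and Got1 (-0.40 and -0.22) among the least. Atf4 had 0.63 and 0.43, but it is 1 of the 8 genes of the mean, so this r is partly with itself. Over 34 points and all genes outside the core with at least 20 CPM in the tumor cells of a library, the most alike were Sars with r = 0.81, Mars and Klf9 with 0.75, Yars with 0.73 and Urb1 with 0.73. Sars, Mars and Yars encode the cytosolic seryl-, methionyl- and tyrosyl-tRNA synthetases. Mars, Klf9 and Urb1 were not in the wider lists and so could enter the clustering genes, whereas Sars and Yars could not.

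The same genes were detected together in single cells. With every cell thinned to 5000 UMIs, Chac1 was detected in 763 tumor cells of library 1 and 631 of library 2. Cells with fewer UMIs were left out, so the shares describe the deeper tumor cells. Cluster 5, for example, kept 558 of 932 and 244 of 445 cells. Trib3 was found in 45.5% and 37.2% of those, and in 15.3% and 13.4% of the cells without Chac1 weighted to the same clusters. Mthfd2 was found in 41.0% and 30.9% against 13% and 9.64%, Asns in 30.01% and 30.11% against 10.2% and 8.76%, and Aldh1l2 in 19.4% and 18.7% against 5.57% and 4.11%. Glul did not follow (15.3% and 13% against 16.5% and 13.3%), nor did Ddit4 (65.8% and 62.8% against 64.1% and 63.2%). Cells within a library are not replicates, and no test was made.

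**Figure D4:**
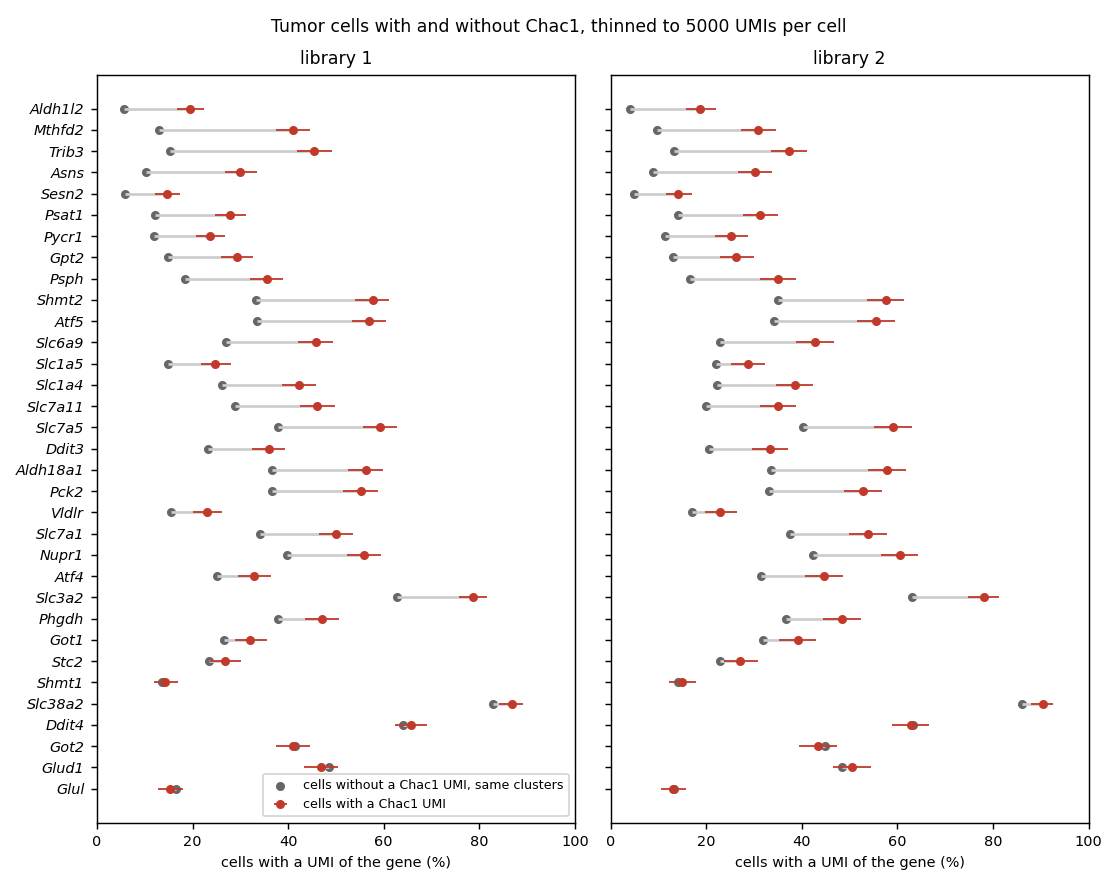
Percentage of tumor cells with at least 1 UMI of each gene, at 5000 UMIs per cell, among cells with Chac1 and among cells without it in the same clusters, for both libraries. Cells with fewer than 5000 UMIs were left out. Trib3, Mthfd2, Asns and Aldh1l2 were detected more often with Chac1, and Glul and Ddit4 at nearly the same share.

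Of the 17 tumor clusters, cluster 5, whose tumor name rests on few markers, had the most members that differed between libraries. Of 34 members tested there, 13 were lower in library 2 and 0 higher, against 2.83% and 1.89% of 8446 genes. The median log2 ratio of the members was -0.51 against 0.01 over all genes, with 30 members below 0. Slc7a11 stood at 195 and 50.5 CPM, with a log2 ratio of -1.93. Mthfd2 stood at 103 and 35.2 CPM, Trib3 at 143 and 64.3, Asns at 75.7 and 34.2, and Chac1 at 94.3 and 55.6. The other 8 were Psph, Shmt2, Aldh1l2, Pycr1, Pck2, Gpt2, Slc7a1 and Slc1a4. Atf4 did not follow, with a log2 ratio of 0.08. The cluster held 932 cells in library 1 and 445 in library 2, or 10.4% and 5.43% of tumor cells.

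The neighbouring cluster 1 (1839 and 788 cells) had the opposite direction. There 3 of 34 members were higher in library 2 and 0 lower, against 0.597% and 0.56% of genes: Chac1 (44.7 and 73.4 CPM), Aldh1l2 (21.5 and 33.5) and Slc1a5 (21.5 and 35.7). With clusters 1 and 5 joined, 0 of 34 members differed, against 0.424% and 0.508% of genes, and Slc7a11 had a log2 ratio of -0.52. The count of 13 also changed with the bounds of cluster 5. In the cluster that held most of its cells at Leiden resolution 0.5 there were 0 lower and 1 higher (Slc1a5), and at resolution 2 there were 2 lower (Mthfd2, Slc7a11). With the same cells thinned to 5000 UMIs, which left 558 and 244 cells, 10 were lower. With cells thinned to 1000 UMIs 3 were lower (Psph, Mthfd2, Slc7a11), while the median log2 ratio was -0.42 and those of Slc7a11 and Asns were -1.86 and -0.94.

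Counts in some other tumor clusters were smaller. In cluster 14, 1 of 25 members tested was higher in library 2 and 7 were lower, against 3.2% and 4.64% of genes, and in cluster 15, 2 of 30 were higher and 7 lower, against 6.2% and 6.06%. These clusters held 48 and 67 cells in library 1 and 592 and 497 in library 2. In cluster 6 (137 and 975 cells), 4 of 28 members were higher and 0 lower, against 3% and 2.28%. In cluster 18 (233 and 189 cells), 4 of 31 were higher and 1 lower, against 2.16% and 1.77%. In cluster 11, 3 of 32 were higher and 0 lower, against 3.63% and 2.73%, and in cluster 23, 2 of 30 were higher and 0 lower, against 2.67% and 2.58%.

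**Figure D5:**
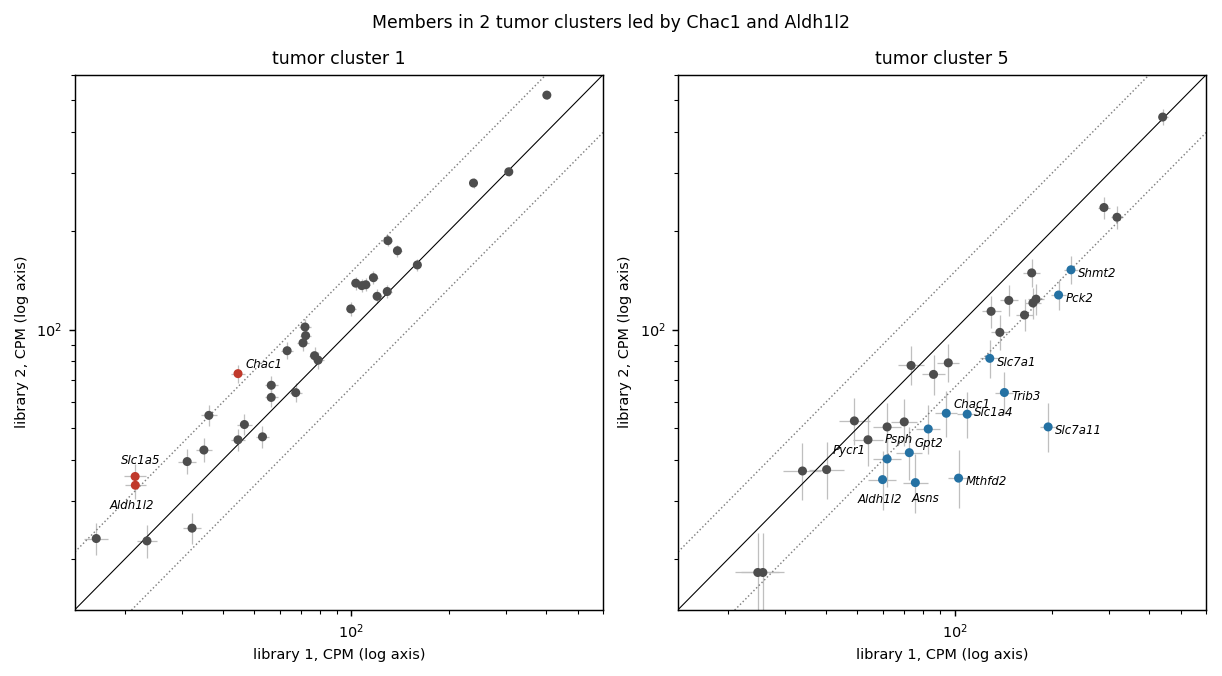
Members in tumor clusters 1 and 5, library 1 on the x axis and library 2 on the y axis, both in CPM on log axes, with 95% Poisson intervals. Blue points were lower in library 2 (13 in cluster 5) and red points higher (3 in cluster 1).

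Promoter sequence was examined because these members varied together over the clusters. The letters TGATGNAA, a C/EBP-ATF response element, were searched on both strands in RefSeq promoters of 300 bases (250 before to 50 after the start, GRCm38.p6). The table held 32 of the 36 members, all but Aldh1l2, Slc7a5, Slc1a5 and Slc38a1. The letters were found in 10 of the 32 genes, or 31.2%, and in 1219 of 27025 genes, or 4.51%. Those genes were Asns, Chac1, Got1, Nupr1, Pck2, Pycr1, Slc1a4, Slc7a11, Trib3 and Vldlr. The members include genes chosen as ATF4 targets, so a share above that of all genes follows from the choice. Of the members lower in cluster 5, 7 of the 12 in the table held the letters, and of the other members 3 of 20. That set was taken from these same data and changed with the bounds of cluster 5, so the split is a description. Whether ATF4 had a part in the cluster 5 difference was not tested. A match describes the letters and shows no binding. Examples among the members lower in cluster 5 are printed with the match in capitals on the strand of the gene: Chac1 (chr2:119350993-119351112, plus strand, match from 193 bases before the start), Slc7a11 (chr3:50443616-50443735, minus strand, 2 matches), Pycr1 (chr11:120643788-120643907, minus strand), Pck2 (chr14:55540107-55540226, plus strand), Asns (chr6:7693214-7693243, minus strand, match from 23 bases before the start) and Trib3 (chr2:152344028-152344057, minus strand, match from 15 bases after the start).
Chac1: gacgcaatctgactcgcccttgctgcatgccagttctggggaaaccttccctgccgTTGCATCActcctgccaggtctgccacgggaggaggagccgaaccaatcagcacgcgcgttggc
Slc7a11: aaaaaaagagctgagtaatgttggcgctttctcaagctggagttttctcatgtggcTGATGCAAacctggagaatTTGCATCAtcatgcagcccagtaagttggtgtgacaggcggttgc
Pycr1: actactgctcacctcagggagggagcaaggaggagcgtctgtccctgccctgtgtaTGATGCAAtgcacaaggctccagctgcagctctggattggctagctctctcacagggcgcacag
Pck2: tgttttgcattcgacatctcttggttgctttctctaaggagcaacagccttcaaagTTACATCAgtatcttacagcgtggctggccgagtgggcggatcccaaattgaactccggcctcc
Asns: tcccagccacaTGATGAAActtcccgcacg
Trib3: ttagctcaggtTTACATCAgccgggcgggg

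Among 114 related genes in 7 wider lists, the share that differed between the libraries was near or below that of all genes. In tumor cells 0 of 90 tested were higher and 1 lower (1.97% and 0.833% over all genes), in fibroblasts 0 of 93 and 3 (3.09% and 3.57%), and in leukocytes 1 of 93 and 1 (3.48% and 1.79%). In tumor cells the sole gene past the threshold was Atf3, another stress-induced factor (20.6 and 11.3 CPM, of 14 tested among other integrated stress response genes), and in leukocytes it was lower too (43.4 and 23.4). Of the 19 cytosolic aminoacyl-tRNA synthetases in the list, which did not hold Mars, 0 differed in any of the 3 classes. The same held for the 13 listed genes of the endoplasmic reticulum chaperone arm of the unfolded protein response. In fibroblasts the large neutral amino acid carrier Slc7a8 (110 and 67.5 CPM, of 14 other carriers), the arginase Arg1 (34.9 and 18.7, of 9 other serine, folate and proline enzymes) and the hypoxia-responsive Adm (29.9 and 11.8, of 13 hypoxia genes) were lower in library 2. Arg1 was higher in leukocytes (122 and 193 CPM, of 10). Of the other glutamine enzymes 0 differed, of 10, 13 and 11 tested in tumor cells, fibroblasts and leukocytes.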

How the data were processed

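Per the submitters' processing notes, Cell Ranger 8.0.0 and mm10 were used, and the deposited matrix holds UMI counts, unscaled. Both samples are in 1 matrix; barcode endings gave 2 libraries, with no treatment assigned. The members and lists were chosen with earlier results of these data known. Cells with at least 200 genes, 500 UMIs and under 20% mitochondrial UMIs were kept (5 and 23 removed). Because Scrublet by default called 2622 doublets in library 1 (21.3%) but 0 in library 2, the top scores were instead dropped at a rate of 0.8% per 1000 cells (1217 and 1137). Scanpy 1.11.5 and leidenalg 0.10.2 gave Leiden clusters at resolution 1 from 3000 variable genes, 50 components and 15 neighbors, without 150 genes (the members and wider lists). Clusters were named from at least 3 markers at 20 CPM and 2-fold, for tumor cells against fibroblasts, pericytes and blood endothelial cells summed. The rule keeping out the macrophage cluster (median at least 5000 UMIs) followed a look at the data. UMIs were summed per class and library, with exact Poisson intervals and 1 CPM added to ratios. Classes were compared at 2-fold in both libraries with intervals apart. The text names every member, genes of the wider lists past the threshold, and the 5 genes most like the core. The calculation was tested on simulated counts. Alternatives included TMM factors from edgeR 4.0.16. Promoters came from RefSeq.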

Additional observations from a re-analysis of the deposited data

Results flagged for a closer look

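For 6 members the log2 ratio of library 2 over library 1 pointed in opposite directions in a pair of tumor clusters, past 1.5-fold with intervals apart in each. The difference between the clusters was not tested in any of them. Trib3 stood at 1.58 in cluster 6 and -1.43 in cluster 15. Chac1 stood at 0.83 in cluster 11 and -1.37 in cluster 15. Vldlr stood at 0.73 in cluster 6 and -1.06 in cluster 15, and Nupr1 at 0.68 in cluster 23 and -0.90 in cluster 15. Aldh1l2 stood at 0.62 in cluster 1 and -0.76 in cluster 5, and Gpt2 at 1.02 in cluster 14 and -0.77 in cluster 5. Clusters 14 and 15 held only 48 and 67 cells in library 1, and cluster 6 held 137.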

How the results depend on the processing

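No paired analysis was possible because each group has 1 library and no label ties a library to a group. The single-member values were recomputed under up to 20 alternatives, which gave 2849 values: 2495 stayed within the counting interval of the reported ratio or, for ratios between classes, on its side of the threshold, 354 did not, and 0 members past the threshold changed direction. Counts of members past the threshold moved as follows. In tumor cells (1 member) the count was 0 with 10 CPM added, 0 with cells thinned to 1000 UMIs and 2 with automatic doublet thresholds. At the cluster shares of library 1, chosen after seeing the data, it stayed at 1 but was Slc1a5. In fibroblasts (1) it was 0 at 50 CPM or more, 3 with per-cell shares, 2 with doublets kept, 9 with automatic doublet thresholds and 2 with tumor-cell RNA subtracted, and thinning to 1000 UMIs left 1, Nupr1 in place of Slc38a1. In leukocytes (0) it was 4 with per-cell shares, 12 with automatic doublet thresholds, 4 at 1000 UMIs or more per cell, 3 at Leiden resolution 0.5, 1 at resolution 2, 1 with the members among the clustering genes, 3 with RNA subtracted, 1 without the 3 highest cells per gene and 3 with the macrophage cluster of high UMI count.

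Between tumor cells and fibroblasts (11 members) the count was 5 at 50 CPM or more, 2 with 10 CPM added, 6 with median-of-ratios factors, 1 with doublets kept and 5 with automatic doublet thresholds. Between tumor cells and leukocytes (4) it was 2 with 10 CPM added, 11 with per-cell shares, 9 with cells thinned to 1000 UMIs, 2 without doublet removal, 2 at Leiden resolution 0.5, 13 with RNA subtracted and 2 with the macrophage cluster of high UMI count. Slc38a1 was lower in tumor cells than in leukocytes in all 19 alternatives that gave a value. In tumor cluster 5 (13), with alternatives chosen after seeing the data, the count was 3 with cells thinned to 1000 UMIs, 6 with per-cell shares, and in the cluster holding most of its cells 1 at Leiden resolution 0.5, 2 at resolution 2, 8 without doublet removal, 4 at 1000 UMIs or more per cell and 1 with the members among the clustering genes. The cause of these moves was not tested.

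Each library is 1 pool of tumors, so the spread between animals was not measured. Fibroblasts gave 2810573 and 3483003 UMIs, against 153803687 and 144017996 in tumor cells, so intervals were wider in fibroblasts.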
